A study of Gallus gallus with 13 samples.

Results

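The 8 interferon response genes MX1, IFIT5, OASL, RSAD2, STAT2, IRF1, IRF8 and IFIH1 were examined in primary chicken embryo fibroblasts, taken as every probe set that the array annotation assigns to one of these symbols alone. That gave 9 probe sets for 7 of the 8 genes, out of 37693 chicken probe sets for 13008 genes with a probe set of 1 symbol. STAT2 had no probe set under its symbol and is not analysed here. The donors were day 10 embryos of the White Leghorn breed, and the cells had been passaged fewer than 10 times and were kept at 41.5 °C in a medium whose complete form held 5% calf serum. Contact-inhibited and serum-starved cells (3 arrays, called confluent, starved cells here) had filled the dish before serum was withdrawn, and serum-starved cells (3 arrays) lost serum while still sparse. Contact-inhibited cells (4 arrays) filled the dish in replenished medium with serum, and cycling cells (3 arrays) were taken in logarithmic growth with serum. No group was given interferon, a virus or double-stranded RNA according to the labels, so the values are those of unstimulated cultures. Nothing in the labels beyond the word biological tells whether replicates had separate embryos behind them, so a p-value measures only the spread between these cultures.

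Interferons are secreted proteins that warn cells of infection. Binding to their receptors activates JAK kinases and STAT factors, STAT2 among them, which then switch on genes whose products block viruses; a low tonic level of the same genes is also found in uninfected fibroblasts. IFIH1, also called MDA5, is a cytoplasmic sensor of double-stranded RNA, and it carries particular weight in chickens, which lack the related sensor RIG-I. IRF1 and IRF8 are transcription factors of the interferon regulatory factor family, IRF8 being best known from macrophages and other blood cells. MX1 is a dynamin-like GTPase, OASL a protein related to the oligoadenylate synthetases, RSAD2 (viperin) a radical enzyme that makes an antiviral nucleotide, and IFIT5 a protein that binds viral RNA ends.

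In these cultures the interferon response genes did not move as a block. IRF1 was higher in both starved groups than in cycling cells and did not differ detectably between contact-inhibited and cycling cells. IRF8 was higher in both confluent groups, and IFIH1 was higher in confluent, starved cells. OASL and MX1 passed no comparison, and RSAD2 and IFIT5 were too dim to test. Values are probe set signals (hybridisation intensity, linear), and differences are given on the scale of log2(signal + 16), which understates the change of dim probe sets. A difference was called when its adjusted p in limma was below 0.05, adjusted over 28270 tested probe sets. A gene was represented by its brightest probe set, and a mean is followed by its SD over the arrays of the group.

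**Figure D1:**
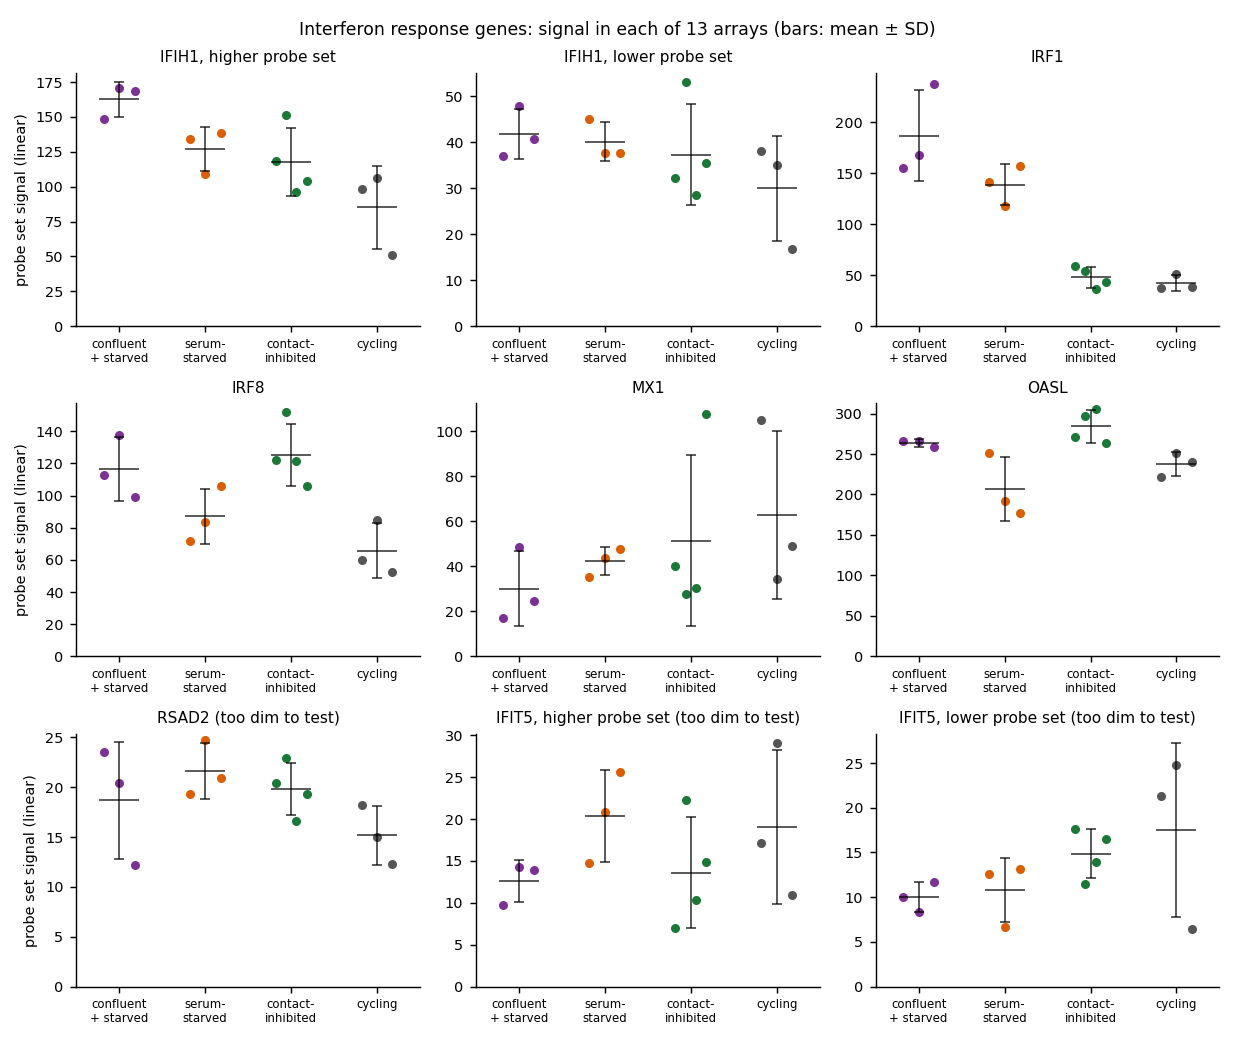
Signal (linear scale) of the 9 probe sets of the interferon response genes in 13 arrays, 1 panel per probe set and 1 point per array, with the mean and SD of confluent, starved cells (3 arrays), serum-starved cells (3), contact-inhibited cells (4) and cycling cells (3). IRF1 stands high in both starved groups, IRF8 in both confluent groups, and the panels marked too dim to test lie near or below a signal of 22.7.

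The arrays were similar in brightness, with a mean signal of 337 to 370 and a median of 50.5 to 66.5. Cycling replicate 3 had the lowest median, 50.5. It also had the highest ratio of 3′ to 5′ actin signal, at 2.41 against 1.27 to 1.89 on the other arrays. A high ratio is a sign of shortened RNA or cDNA, though the labels state a high minimum RNA integrity for every array. The 10 fibroblast marker genes were all on the array and above the filter in every array, and their summed signal was 99661 to 104232 in confluent, starved cells, 95313 to 103903 in serum-starved cells, 89985 to 98559 in contact-inhibited cells and 80393 to 87804 in cycling cells. Markers of other cell types were read in the same way, and only some of them moved with the groups. The 4 melanocyte genes, 3 of them above the filter in every array, summed to 193 to 222 in confluent, starved and 166 to 221 in serum-starved cells. Their sum was 173 to 244 in contact-inhibited and 198 to 224 in cycling cells, so these ranges overlapped. In that order, the 3 erythroid genes with a probe set of 7, 2 above the filter, gave 205 to 218, 214.5 to 221, 205 to 256 and 219 to 286. Likewise 6 skeletal muscle genes, 2 above the filter, gave 317 to 413, 304 to 380, 399 to 447 and 292 to 351. The 6 endothelial genes, 4 of them above the filter in every array, summed to 1754 to 2024 in confluent, starved cells and 1376 to 1679 in serum-starved cells. Their sum was 1270 to 1850 in contact-inhibited cells and 830 to 974 in cycling cells. Most of that sum was ERG, which averaged 1618 in confluent, starved, 1296 in serum-starved, 1094 in contact-inhibited and 596 in cycling cells. EGFL7 averaged 98.0, 77.3, 192 and 162 in the same order, and the TEK mean was also lower in the starved groups than in cycling cells. KDR and PECAM1 means were higher in every arrested group than in cycling cells. The 5 chondrocyte genes, 4 above the filter, summed to 821 to 1653 in the arrested groups and 10144 to 11325 in cycling cells, and the 4 epithelial genes with a probe set of 6, 2 above the filter, to 137 to 1164 and 3623 to 4762. Most of the cycling chondrocyte sum was COL2A1, a cartilage collagen, and most of the cycling epithelial sum was KRT7, a keratin. ACAN of cartilage averaged 14.9 in confluent, starved, 17.0 in serum-starved, 336 in contact-inhibited and 16.1 in cycling cells. In that order COL9A1 averaged 75.0, 90.5, 108 and 57.4, and SOX9 34.2, 60.9, 107 and 91.7. MATN1 averaged 80.0, 76.8, 77.0 and 74.3, and ESRP1 of epithelia 52.4, 36.9, 43.9 and 33.7. EPCAM and CDH1 of epithelia reached 17.9 and 18.7 and CDH5 of endothelium 13.7. The part of these cell types in the differences below was not tested. HINTW, a gene of the W chromosome carried only by hens, read 0 to 0.85 in confluent, starved cells, 427.83, 0 and 3.08 in serum-starved cells, 84.3 in contact-inhibited replicate 1 and 1188 to 1311 in the other contact-inhibited arrays, and 2646 to 3358 in cycling cells. The sex of the source embryos and the culture condition therefore cannot be told apart across most groups. In bulk cultures, fewer cells of a type and less RNA per cell cannot be told apart either.

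Of the 7 genes with a probe set, 5 passed the filter on dim probe sets, with 6 probe sets, and were tested. Against cycling cells, 3 of these 5 were called higher in confluent, starved cells (IRF1, IRF8 and IFIH1), where 18.6% of the 11498 tested genes were called higher. In serum-starved cells 1 of 5 was called higher (IRF1), against 11% of all genes, and in contact-inhibited cells 1 of 5 was called higher (IRF8), against 18.7% of all genes. Their median log2 differences from cycling cells were 0.70 in confluent, starved cells, 0.34 in serum-starved cells and 0.24 in contact-inhibited cells, with all-gene medians of 0.02, 0.01 and 0.02. These 3 comparisons share the cycling arrays. With 5 genes, the counts of 1 in serum-starved and contact-inhibited cells rest on a single gene each. With array weights, the count in contact-inhibited cells was 2. The share of all genes called was not taken with array weights or with arrays left out, here or below.

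Between arrested groups, 1 of the 5 genes was called higher in confluent, starved than in contact-inhibited cells (IRF1), where 13.5% of all genes were called higher. That count was 2 without cycling replicate 3 and 2 with array weights, IFIH1 being the gene gained in each case. Of the same 5 genes, 0 were called between confluent, starved and serum-starved cells by limma, where 1.46% of all genes were called in either direction. There, 1 gene (OASL) had an unadjusted p below 0.05, and array weights called 2 genes (OASL and IRF8). The interaction sets the starvation difference of confluent cultures against the one of sparse cultures and is the first minus the second. It called 0 of the 5 by limma, against 14.2% of all genes, and 0 had an unadjusted p below 0.05.

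**Figure D2:**
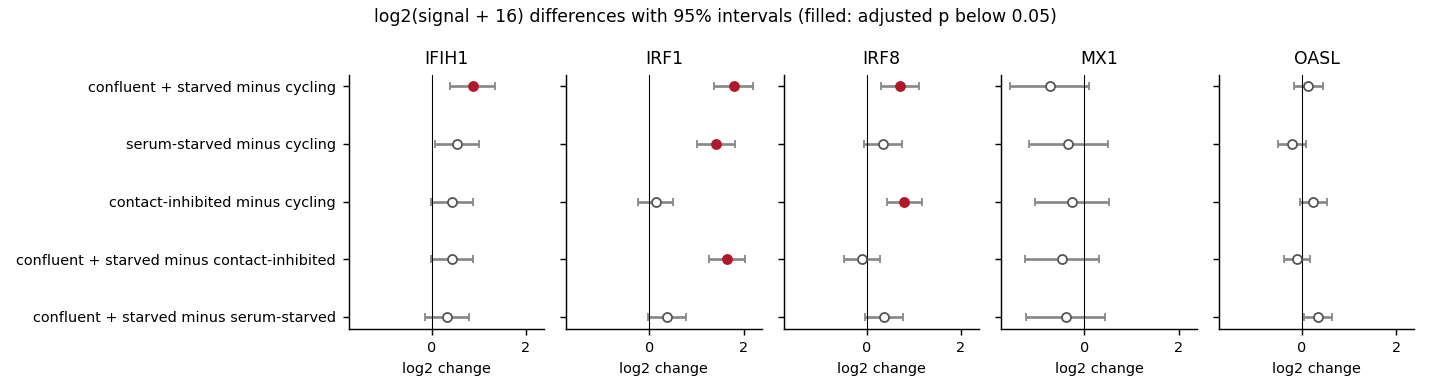
Differences between groups for the 5 tested interferon response genes on the log2(signal + 16) scale (x axis), with 95% intervals, for 5 comparisons (y axis); filled points passed an adjusted p of 0.05. IRF1 passed in the 3 comparisons that set starved cells against cells with serum, from 1.42 to 1.79, while every MX1 and OASL point is open.

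The regulators of the family showed the clearest differences. IRF1 had signals of 155, 168 and 238 in confluent, starved cells, 141, 118 and 157 in serum-starved cells, 58.6, 54.3, 36.15 and 43.0 in contact-inhibited cells and 37.0, 50.9 and 38.2 in cycling cells. Every array of a starved culture lay above every array of a culture with serum, while the contact-inhibited and cycling ranges overlapped. The group means were 187 ± 44.8 in confluent, starved cells, 139 ± 19.9 in serum-starved cells, 48.0 ± 10.3 in contact-inhibited cells and 42.0 ± 7.70 in cycling cells. Relative to cycling cells, IRF1 rose by a log2 difference of 1.79 ± 0.19 (SE) in confluent, starved cells (limma adjusted p = 1.71e-05) and of 1.42 ± 0.19 in serum-starved cells (limma adjusted p = 0.0002246). Starvation of confluent cells gave a similar size, 1.65 ± 0.18 against contact-inhibited cells (limma adjusted p = 3.205e-05). Contact-inhibited and cycling cells did not differ beyond their spread, at 0.14 with a 95% interval of -0.24 to 0.52 (limma adjusted p = 0.595). The difference between confluent, starved and serum-starved cells was 0.37 with an interval of -0.03 to 0.78 (limma adjusted p = 0.433). In order of level the groups therefore fell into a starved pair and a pair with serum, and neighbours within a pair did not pass. The interaction for IRF1 was 0.24 ± 0.26 with an interval of -0.32 to 0.80 (limma adjusted p = 0.61).

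The IRF1 calls were kept under all 25 alternative settings tried, with log2 differences from cycling cells of 1.23 to 2.11 in confluent, starved cells and 0.93 to 1.70 in serum-starved cells. The lowest of these came with an offset of 64 and the highest with an offset of 1. IRF1 and the female transcript HINTW stood in opposite orders across the groups. Within the contact-inhibited group, replicate 1 with HINTW at 84.3 had an IRF1 signal of 58.6, against 36.15 to 54.3 in the other 3 arrays. Within the serum-starved group, replicate 1 with HINTW at 427.83 had an IRF1 signal of 141, between the other 2. The part of embryo sex in the IRF1 difference was not tested.

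IRF8 had its 2 highest means in the confluent groups. Its signals were 113, 138 and 99.05 in confluent, starved cells, 71.9, 83.8 and 106 in serum-starved cells, 122, 152, 121 and 106 in contact-inhibited cells and 60.2, 84.8 and 52.5 in cycling cells. All 7 arrays of confluent cultures lay above all cycling arrays, whereas the serum-starved arrays overlapped with each of the other groups. The means were 116 ± 19.7 in confluent, starved cells, 87.2 ± 17.2 in serum-starved cells, 125 ± 19.4 in contact-inhibited cells and 65.8 ± 16.9 in cycling cells. IRF8 rose in contact-inhibited cells by a log2 difference of 0.80 ± 0.18 against cycling cells (limma adjusted p = 0.003199). In confluent, starved cells it rose by 0.70 ± 0.19 (limma adjusted p = 0.01253), a call lost without confluent, starved replicate 2, where the difference was 0.59 (limma adjusted p = 0.05988). Serum-starved cells had 0.34 ± 0.19 against cycling cells (limma adjusted p = 0.2446). Starvation of confluent cells changed the IRF8 level by -0.09 ± 0.18 with an interval of -0.47 to 0.28 (limma adjusted p = 0.7644). Confluent, starved against serum-starved cells gave 0.36 ± 0.19 (limma adjusted p = 0.4432), and with array weights 0.48 (limma adjusted p = 0.03975).

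Since IRF8 is a gene of macrophages and other blood cells, the 15 leukocyte marker genes were read beside it. All 15 had a probe set, and 13 of them lay above the filter in every array. Their summed signal was 1141 to 1484 in confluent, starved cells, 932 to 1126 in serum-starved cells, 1070 to 1348 in contact-inhibited cells and 837 to 938 in cycling cells. Much of that sum was CTSS, a lysosomal protease that fibroblasts can also make, with 503 to 754 in confluent, starved cells, 120 to 405 in serum-starved cells, 252 to 370 in contact-inhibited cells and 120 to 186 in cycling cells. SPI1, the master factor of macrophages, had 37.7 to 50.2 in confluent, starved cells, 28.8 to 51.1 in serum-starved cells, 51.8 to 90.25 in contact-inhibited cells and 31.7 to 49.8 in cycling cells. PTPRC, the pan-leukocyte surface protein CD45, had 107 to 166 in confluent, starved cells, 146 to 196 in serum-starved cells, 137 to 174 in contact-inhibited cells and 77.3 to 204 in cycling cells. The T cell gene CD3E was listed at 0 in 6 of the 13 arrays and reached 8.24, and CYBB of the phagocyte oxidase reached 19.0. LY86, a partner of a Toll-like receptor relative in immune cells, had 35.5 to 47.0 in confluent, starved cells, 34.8 to 52.8 in serum-starved cells, 86.45 to 109 in contact-inhibited cells and 47.35 to 53.6 in cycling cells. TIMD4, a macrophage receptor for dying cells, had 25.9 to 54.6 in confluent, starved cells, 31.7 to 35.0 in serum-starved cells, 54.5 to 80.75 in contact-inhibited cells and 23.1 to 30.9 in cycling cells. SPI1, LY86 and TIMD4 had their highest means in contact-inhibited cells, as IRF8 did, and so did C1QA, CSF1R, MARCO and CD79B. The highest means of CTSS, C1QB and CD3E were in confluent, starved cells, and those of PTPRC, C1QC, CD74 and CYBB in serum-starved cells. LAPTM5 was highest in cycling cells, at 71.5. PTPRC, CSF1R, LY86, CD74, C1QA, MARCO, LAPTM5 and CD79B had lower means in confluent, starved than in cycling cells. SPI1, TIMD4, C1QB, C1QC, CTSS, CYBB and CD3E had higher means there, as did IRF8 at 116 against 65.8. The part of leukocytes in the IRF8 difference was not tested.

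Among sensors, IFIH1 had 2 tested probe sets. The brighter one had signals of 148, 171 and 169 in confluent, starved cells, 134, 109 and 138 in serum-starved cells, 118, 152, 95.9 and 104 in contact-inhibited cells and 98.2, 106 and 51.1 in cycling cells. All confluent, starved and all serum-starved arrays lay above all cycling arrays, and the contact-inhibited arrays overlapped with every other group. The means were 163 ± 12.4 in confluent, starved cells, 127 ± 15.6 in serum-starved cells, 117 ± 24.5 in contact-inhibited cells and 85.1 ± 29.7 in cycling cells. IFIH1 rose in confluent, starved cells by a log2 difference of 0.87 ± 0.22 against cycling cells (limma adjusted p = 0.009036). Serum-starved cells had 0.54 ± 0.22 (limma adjusted p = 0.1074) and contact-inhibited cells 0.43 ± 0.20 (limma adjusted p = 0.1181), which did not pass. Against contact-inhibited cells, confluent, starved cells had 0.44 ± 0.20 (limma adjusted p = 0.1633).

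The lowest of the 13 IFIH1 signals, 51.1, came from cycling replicate 3, the array with the lowest median signal and the highest actin ratio. Without it the difference between confluent, starved and cycling cells was 0.60 (limma adjusted p = 0.02285), so the call was kept at a smaller size. The differences from cycling cells that had not passed were then 0.27 in serum-starved and 0.16 in contact-inhibited cells. The difference from contact-inhibited cells kept its size of 0.44 and passed there (limma adjusted p = 0.04721). The dimmer IFIH1 probe set had 37.0, 47.8 and 40.65 in confluent, starved cells, 45.1, 37.7 and 37.6 in serum-starved cells, 32.2, 53.2, 28.6 and 35.4 in contact-inhibited cells and 38.0, 35.1 and 16.9 in cycling cells. It passed no comparison, with 0.36 ± 0.20 for confluent, starved against cycling cells (limma adjusted p = 0.1895). The rise of IFIH1 therefore rests on 1 of its 2 probe sets.

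Among the antiviral effectors, OASL passed no comparison. Its signals were 266, 266 and 258 in confluent, starved cells, 251, 191 and 177 in serum-starved cells, 271, 297, 306 and 263 in contact-inhibited cells and 222, 251.5 and 241 in cycling cells. The 7 confluent arrays all lay above the 6 sparse ones, the nearest pair being 258 and 251.5, while the serum-starved and cycling arrays overlapped. The means were 264 ± 4.48 in confluent, starved cells, 207 ± 39.3 in serum-starved cells, 284 ± 20.3 in contact-inhibited cells and 238 ± 15.0 in cycling cells. The log2 difference from cycling cells was 0.24 in contact-inhibited cells with an interval of -0.04 to 0.52 (limma adjusted p = 0.1773). It was -0.20 in serum-starved cells with an interval of -0.51 to 0.10 (limma adjusted p = 0.3608). It was 0.14 in confluent, starved cells with an interval of -0.16 to 0.44 (limma adjusted p = 0.4875). Confluent, starved against serum-starved cells gave 0.34 with an interval of 0.04 to 0.65 (limma adjusted p = 0.3057). Array weights brought the contact-inhibited difference to 0.30 (limma adjusted p = 0.04648) and the last one to 0.41 (limma adjusted p = 0.0177).

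MX1 had the largest standard errors of the 5 tested genes. Its signals were 16.8, 48.7 and 24.6 in confluent, starved cells, 35.4, 43.5 and 47.7 in serum-starved cells, 39.96, 27.8, 30.3 and 108 in contact-inhibited cells and 105, 34.3 and 49.1 in cycling cells. Only contact-inhibited replicate 4 and cycling replicate 1 exceeded 50, and all 4 groups overlapped. The means were 30.0 ± 16.7 in confluent, starved cells, 42.2 ± 6.28 in serum-starved cells, 51.4 ± 37.8 in contact-inhibited cells and 62.8 ± 37.2 in cycling cells. Against cycling cells the log2 difference was -0.73 in confluent, starved cells, with an interval of -1.57 to 0.10 (limma adjusted p = 0.1754). It was -0.34 in serum-starved cells (limma adjusted p = 0.6023) and -0.26 in contact-inhibited cells (limma adjusted p = 0.6199). Without cycling replicate 1 the difference in confluent, starved cells was -0.37, and the other 2 were 0.02 and 0.10, so cycling replicate 1 set the sign of these.

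RSAD2 and IFIT5 lay under the filter, a mean signal of about 22.7, and got no test. RSAD2 had 23.5, 20.4 and 12.2 in confluent, starved cells, 19.3, 24.75 and 20.95 in serum-starved cells, 20.5, 22.9, 16.6 and 19.3 in contact-inhibited cells and 18.2, 15.0 and 12.3 in cycling cells. The brighter IFIT5 probe set ranged over 9.76 to 14.3 in confluent, starved cells, 14.7 to 25.6 in serum-starved cells, 6.99 to 22.3 in contact-inhibited cells and 10.9 to 29.1 in cycling cells. The other probe set annotated to IFIT5, whose strand was not checked, ranged over 8.34 to 11.6 in confluent, starved cells, 6.69 to 13.2 in serum-starved cells, 11.5 to 17.6 in contact-inhibited cells and 6.48 to 24.8 in cycling cells. The values hold no detection calls, so signals at this level cannot be told from background, and no order of the groups is read from them.

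The rest of the pathway was read from lists of 87 genes with a probe set, 80 of them tested. The 80 include 7 NF-kB genes read as a reference and described below. Of the higher calls against cycling cells, these 7 gave 4 in confluent, starved, 4 in serum-starved and 5 in contact-inhibited cells. The shares of the list below are therefore not those of interferon genes alone. In confluent, starved cells 20 of the 80 were called higher and 10 lower than in cycling cells, 25% and 12.5% of the list, beside 18.6% and 16.1% of all genes. In serum-starved cells 13 were called higher and 7 lower, 16.2% and 8.75%, beside 11% and 9.71% of all genes. In contact-inhibited cells 24 were called higher and 13 lower, 30% and 16.2%, beside 18.7% and 21.9% of all genes. The list medians were 0.13, 0.12 and 0.04 on the log2 scale in these comparisons, beside 0.02, 0.01 and 0.02 for all genes. The split depended on scaling. With arrays centred on their median, 8 were higher and 9 lower in serum-starved cells and 20 each way in contact-inhibited cells, and the all-gene median itself moved to -0.11 and -0.10. Without serum-starved replicate 3 the serum-starved count was 11 genes.

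At the top of the pathway, 1 of the 3 interferon genes on the array was bright enough to test. IFNG, the type II interferon of lymphocytes, averaged 10.9 ± 1.84 in confluent, starved cells, 9.11 ± 3.47 in serum-starved cells, 12.8 ± 3.15 in contact-inhibited cells and 15.0 ± 2.57 in cycling cells, under the filter. The type I gene IFNW1 averaged 1.41 to 2.84 in every group. IFNL3A, a lambda interferon, averaged 79.0 ± 8.96 in confluent, starved cells, 87.7 ± 3.78 in serum-starved cells, 89.2 ± 23.2 in contact-inhibited cells and 73.0 ± 4.47 in cycling cells, and passed no comparison.

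Receptor chains were called in 1 direction only. Of 5 tested, 3 rose in confluent, starved cells, 1 in serum-starved cells and 2 in contact-inhibited cells against cycling cells. The shares called higher were 60%, 20% and 40%, beside 18.6%, 11% and 18.7% of all genes. IFNGR2, the second chain of the gamma receptor, averaged 3161 ± 416 in confluent, starved cells, 2862 ± 181 in serum-starved cells, 3148 ± 373 in contact-inhibited cells and 2008 ± 294 in cycling cells, with log2 differences of 0.65, 0.52 and 0.65 from cycling cells (limma adjusted p = 0.002874, 0.01936 and 0.001512). The serum-starved call was lost under 5 of 25 alternatives. IL10RB, shared by the lambda interferon and interleukin 10 receptors, averaged 435 ± 53.8 in confluent, starved cells, 268 ± 41.5 in serum-starved cells, 461 ± 80.5 in contact-inhibited cells and 207 ± 78.5 in cycling cells. It rose by 1.08 in confluent, starved cells (limma adjusted p = 0.005058) and by 1.15 in contact-inhibited cells (limma adjusted p = 0.001656). IFNAR2, the signalling chain of the type I receptor, rose by 0.56 in confluent, starved cells (limma adjusted p = 0.001429), at 1705 ± 92.9 against 1151 ± 51.7 in cycling cells. IFNAR1 and IFNLR1 passed no comparison, and IFNGR1 was too dim to test.

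Of the 4 tested kinases and STATs, 2 rose in serum-starved and 2 in contact-inhibited cells, 50% each, beside 11% and 18.7% of all genes. In confluent, starved cells 0 were called by limma, with 1 at an unadjusted p below 0.05. There, 18.6% of all genes were called higher and 16.1% lower. JAK1, which serves all interferon receptors, averaged 1189 ± 48.8 in confluent, starved cells, 1446 ± 214 in serum-starved cells, 1574 ± 166 in contact-inhibited cells and 971 ± 156 in cycling cells. It rose by 0.69 in contact-inhibited cells (limma adjusted p = 0.00138) and by 0.57 in serum-starved cells (limma adjusted p = 0.01609), the second call lost under 4 of 25 alternatives, among them without serum-starved replicate 1, serum-starved replicate 3 or cycling replicate 1. JAK2, a kinase of the gamma receptor, rose by 0.63 in contact-inhibited cells (limma adjusted p = 0.02131), a call lost without cycling replicate 3. STAT3 rose by 0.57 in serum-starved cells (limma adjusted p = 0.04754) and lost that call under 17 of 25 alternatives. Of the 4 other IRF genes tested, only the gene that the array annotation names IRF9 was called. It differed by -0.56 in contact-inhibited cells (limma adjusted p = 0.04693), a call lost under 15 of 24 alternatives. Its identity beyond that symbol was not checked. This 1 call was 25% of the list, beside 21.9% of all genes called lower.

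**Figure D3:**
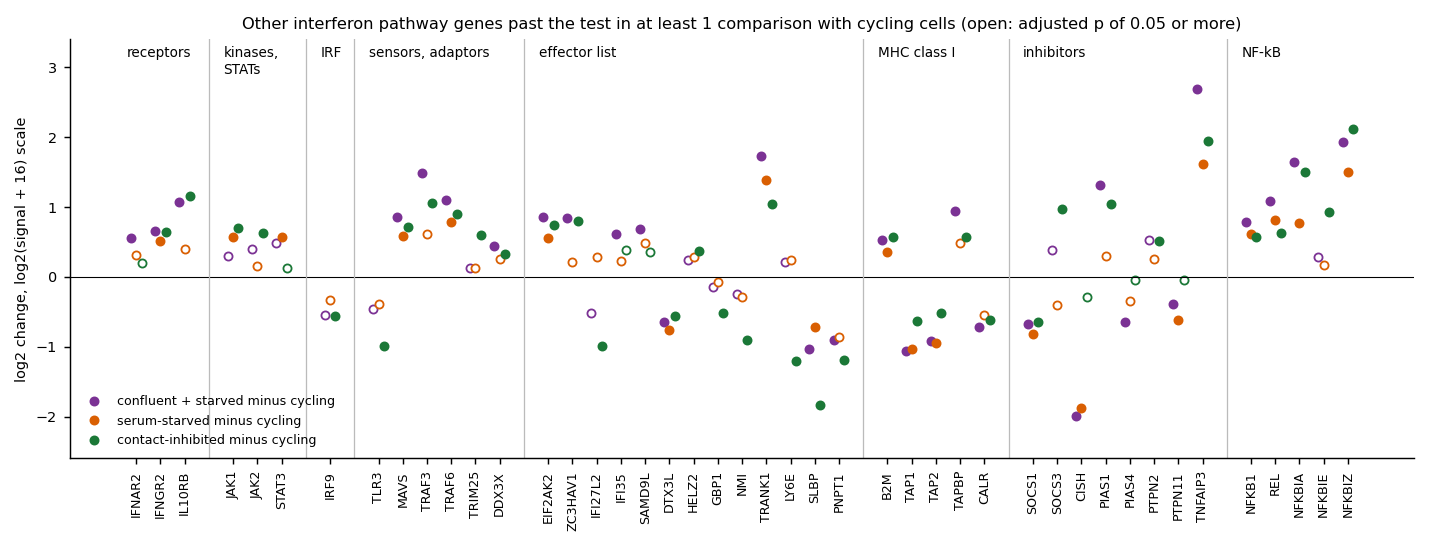
Differences from cycling cells on the log2(signal + 16) scale (y axis) for the pathway genes that passed in at least 1 of the 3 comparisons, grouped by role along the x axis. Each gene has 3 points, for confluent, starved cells, serum-starved cells and contact-inhibited cells, filled where the adjusted p was below 0.05; the NF-kB genes shown stand above 0 and TAP1, TAP2 and SOCS1 below it.

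Adaptors downstream of IFIH1 were among the steadier calls. Of 14 tested sensors and adaptors, 4 rose in confluent, starved cells, 2 in serum-starved cells and 5 in contact-inhibited cells, where 1 fell. These were 28.6%, 14.3% and 35.7% called higher, beside 18.6%, 11% and 18.7% of all genes. In contact-inhibited cells 7.14% were called lower, beside 21.9% of all genes. MAVS, the mitochondrial adaptor to which IFIH1 signals, averaged 238 ± 12.0 in confluent, starved cells, 194 ± 12.4 in serum-starved cells, 214 ± 21.5 in contact-inhibited cells and 124 ± 8.07 in cycling cells. Its log2 differences from cycling cells were 0.86, 0.59 and 0.71 (limma adjusted p = 0.0002523, 0.006611 and 0.0004606). TRAF6, a ubiquitin ligase that passes the signal on, averaged 594 ± 101 in confluent, starved cells, 472 ± 54.0 in serum-starved cells, 508 ± 49.6 in contact-inhibited cells and 265 ± 6.37 in cycling cells. TRAF6 rose by 1.11, 0.79 and 0.90 in the same order of groups (limma adjusted p = 0.0001194, 0.002664 and 0.0002599). Both genes kept all 3 calls under every alternative setting. TRAF3, another ubiquitin ligase of this route, rose by 1.48 in confluent, starved and by 1.05 in contact-inhibited cells (limma adjusted p = 0.0008534 and 0.004166), both lost when the probe sets of the gene were averaged. The 1 gene that fell in contact-inhibited cells was TLR3, an endosomal receptor for double-stranded RNA. It averaged 25.4 ± 12.3 against 65.0 ± 20.5 in cycling cells, a log2 difference of -0.99 (limma adjusted p = 0.005859). The call rests on 1 of its 2 tested probe sets and was not followed under the alternatives. Its contact-inhibited mean lay near the filter. TLR3 is named because it made up a count of 1, after its values were seen.

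The other effector genes split in both directions. Of 26 tested, 5 rose and 3 fell in confluent, starved cells, 19.2% and 11.5%, beside 18.6% and 16.1% of all genes. In serum-starved cells 2 rose and 2 fell, 7.69% each way, beside 11% and 9.71% of all genes. In contact-inhibited cells 4 rose and 7 fell, 15.4% and 26.9%, beside 18.7% and 21.9% of all genes. EIF2AK2, the kinase PKR that stops translation on double-stranded RNA, averaged 240.3 ± 10.2 in confluent, starved cells, 193 ± 9.13 in serum-starved cells, 226 ± 51.3 in contact-inhibited cells and 126 ± 13.2 in cycling cells. It rose by 0.86 in confluent, starved cells (limma adjusted p = 0.003067), by 0.56 in serum-starved cells (limma adjusted p = 0.04732) and by 0.74 in contact-inhibited cells (limma adjusted p = 0.003792). The serum-starved call of EIF2AK2 was lost under 17 of 25 alternatives. ZC3HAV1, a protein that binds CpG-rich viral RNA in mammals, averaged 277 ± 6.87 in confluent, starved cells, 173 ± 24.1 in serum-starved cells, 268 ± 10.2 in contact-inhibited cells and 148 ± 16.7 in cycling cells. It rose by 0.84 in confluent, starved cells (limma adjusted p = 0.0004227) and by 0.80 in contact-inhibited cells (limma adjusted p = 0.0002745). TRANK1 rose by 1.73 in confluent, starved, by 1.39 in serum-starved and by 1.05 in contact-inhibited cells (limma adjusted p = 0.0003058, 0.002669 and 0.004639), on 1 of its 2 tested probe sets.

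Among the effector genes that fell, NMI, a partner of STAT proteins, averaged 514 ± 76.0 in confluent, starved cells, 494 ± 10.6 in serum-starved cells, 319 ± 49.7 in contact-inhibited cells and 609 ± 29.1 in cycling cells. It fell by 0.91 in contact-inhibited cells (limma adjusted p = 0.0002801). DTX3L, a ubiquitin ligase that works with PARP9, fell by 0.64 in confluent, starved, by 0.75 in serum-starved and by 0.56 in contact-inhibited cells (limma adjusted p = 0.02828, 0.02073 and 0.03238), and the serum-starved call was lost without serum-starved replicate 3 or cycling replicate 1. LY6E, a lipid-anchored surface protein, fell by 1.20 in contact-inhibited cells (limma adjusted p = 0.001978), but of its 4 tested probe sets 1 was called lower and 1 higher. The list also held SLBP, whose product binds histone mRNA in dividing cells and is not known as an antiviral effector. SLBP fell in all 3 arrested groups, to 152 ± 21.2 in confluent, starved cells, 192 ± 20.4 in serum-starved cells and 81.9 ± 20.7 in contact-inhibited cells, against 327 ± 40.3 in cycling cells, with the serum-starved call lost under 4 of 25 alternatives.

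Genes of antigen presentation by MHC class I moved apart. Of 7 tested, 2 rose and 3 fell in confluent, starved cells, 28.6% and 42.9%, beside 18.6% and 16.1% of all genes. In serum-starved cells 1 rose and 2 fell, 14.3% and 28.6%, beside 11% and 9.71% of all genes. In contact-inhibited cells 2 rose and 3 fell, 28.6% and 42.9%, beside 18.7% and 21.9% of all genes. TAP1 and TAP2, the 2 subunits of the peptide transporter, were lower in every arrested group. TAP1 averaged 43.0 ± 6.95 in confluent, starved cells, 44.1 ± 6.99 in serum-starved cells, 63.3 ± 6.59 in contact-inhibited cells and 109 ± 36.7 in cycling cells, with log2 differences of -1.06, -1.03 and -0.63 (limma adjusted p = 0.0008693, 0.001994 and 0.01235). TAP2 fell by 0.92, 0.95 and 0.51 in the same order of groups (limma adjusted p = 0.003433, 0.005296 and 0.04533). The contact-inhibited call of TAP1 was lost without cycling replicate 3, and that of TAP2 was not followed under the alternatives. CALR fell by 0.71 in confluent, starved and by 0.61 in contact-inhibited cells (limma adjusted p = 0.02278 and 0.03013). Its contact-inhibited call was lost under 7 of 25 alternatives. B2M, the constant light chain of class I molecules, averaged 4600 ± 601 in confluent, starved cells, 4057 ± 423 in serum-starved cells, 4707 ± 328 in contact-inhibited cells and 3171 ± 124 in cycling cells. It rose by 0.53 in confluent, starved cells (limma adjusted p = 0.002857), by 0.35 in serum-starved cells (limma adjusted p = 0.04372) and by 0.57 in contact-inhibited cells (limma adjusted p = 0.0008606), on 1 of its 3 tested probe sets, and the serum-starved call was lost under 13 of 25 alternatives. TAPBP, the tapasin that loads peptide, rose by 0.94 in confluent, starved cells (limma adjusted p = 0.00109) and by 0.57 in contact-inhibited cells (limma adjusted p = 0.01314), the second call lost under 2 of 25 alternatives. The class I heavy chain gene BF2 passed no comparison between groups.

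Inhibitors of the pathway also split. Of 12 tested, 2 rose and 4 fell in confluent, starved cells, 16.7% and 33.3%, beside 18.6% and 16.1% of all genes. In serum-starved cells 1 rose and 3 fell, 8.33% and 25%, beside 11% and 9.71% of all genes. In contact-inhibited cells 4 rose and 1 fell, 33.3% and 8.33%, beside 18.7% and 21.9% of all genes. CISH, a suppressor induced by cytokines through STAT5, averaged 64.6 ± 17.2 in confluent, starved cells, 70.9 ± 12.2 in serum-starved cells, 257 ± 104 in contact-inhibited cells and 303 ± 33.0 in cycling cells. It fell by 2.00 and 1.88 in the starved groups against cycling cells (limma adjusted p = 8.047e-05 and 0.0002538) and by 1.71 in confluent, starved against contact-inhibited cells (limma adjusted p = 0.0002765). CISH and IRF1 thus both separated starved cells from cells with serum, in opposite directions. SOCS1, the main brake on JAK kinases, averaged 97.9 ± 22.8 in confluent, starved cells, 87.4 ± 23.4 in serum-starved cells, 99.9 ± 18.04 in contact-inhibited cells and 164 ± 3.17 in cycling cells. It fell by 0.68, 0.82 and 0.64 in the arrested groups in that order (limma adjusted p = 0.02106, 0.013 and 0.01666), with the confluent, starved call lost without confluent, starved replicate 1 and the serum-starved call lost without serum-starved replicate 3. PIAS1, a SUMO ligase that restrains STAT signalling, rose by 1.31 in confluent, starved and by 1.04 in contact-inhibited cells (limma adjusted p = 0.000178 and 0.0004405). SOCS3 rose by 0.97 in contact-inhibited cells (limma adjusted p = 0.001912).

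NF-kB genes were read because NF-kB acts with IRF1 on shared promoters. Of 7 tested, 4 rose in confluent, starved cells, 4 in serum-starved cells and 5 in contact-inhibited cells, with list medians of 0.78, 0.62 and 0.63. The shares called higher were 57.1%, 57.1% and 71.4%, beside 18.6%, 11% and 18.7% of all genes. The subunit genes RELA and NFKB2 passed in none of these. Of these comparisons the inhibitor gene NFKBIE passed only that of contact-inhibited cells, by 0.92 (limma adjusted p = 0.002003). NFKBIA, another inhibitor gene, rose by 1.646 in confluent, starved, 0.778 in serum-starved and 1.503 in contact-inhibited cells (limma adjusted p = 9.558e-05, 0.02408 and 8.498e-05). The subunit gene NFKB1 rose by 0.783, 0.618 and 0.568 in that order (limma adjusted p = 0.001381, 0.0109 and 0.005532). The serum-starved call was lost under 5 of 25 alternatives for NFKBIA and 2 of 25 for NFKB1. NFKBIZ, a nuclear co-factor, averaged 351 ± 109 in confluent, starved cells, 255 ± 65.8 in serum-starved cells, 397 ± 92.1 in contact-inhibited cells and 77.8 ± 7.72 in cycling cells. REL, a subunit of NF-kB, averaged 777 ± 79.8 in confluent, starved cells, 641 ± 54.0 in serum-starved cells, 563 ± 50.9 in contact-inhibited cells and 358 ± 20.5 in cycling cells. NFKBIZ rose by 1.94, 1.51 and 2.11 and REL by 1.08, 0.81 and 0.63 in confluent, starved, serum-starved and contact-inhibited cells (limma adjusted p between 1.236e-05 and 0.001207). TNFAIP3, the A20 enzyme that shuts NF-kB and sensor signalling down, averaged 233 ± 68.6 in confluent, starved cells, 99.98 ± 8.36 in serum-starved cells, 143 ± 86.8 in contact-inhibited cells and 21.7 ± 3.62 in cycling cells. It rose by 2.69, 1.62 and 1.95 in that order (limma adjusted p = 3.494e-05, 0.002984 and 0.0001854), and its cycling values lay near the filter.

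Withdrawing serum from confluent cells called 8 of the 80 pathway genes higher and 3 lower than in contact-inhibited cells, 10% and 3.75%, beside 13.5% and 7.34% of all genes. With quantile normalization 5 were higher and 6 lower. The count was 17 without cycling replicate 3, and 7 without contact-inhibited replicate 3 or without confluent, starved replicate 1. The genes that fell were CISH, given above, TRIM25, a ubiquitin ligase of RNA sensing, by 0.47 (limma adjusted p = 0.02082), and NFKBIE by 0.64 (limma adjusted p = 0.03311). NMI rose by 0.66 (limma adjusted p = 0.00592), TBK1, the kinase that activates IRF factors, by 0.72 (limma adjusted p = 0.007069), and REL by 0.45 (limma adjusted p = 0.01794). LY6E rose by 1.41 (limma adjusted p = 0.001491), SLBP by 0.80 (limma adjusted p = 0.008351) and IFNAR2 by 0.36 (limma adjusted p = 0.02313). TLR21 and MYD88, of the sensors and adaptors, rose by 0.79 and 0.52 (limma adjusted p = 0.003813 and 0.0458). The TBK1, LY6E and TLR21 calls were lost when the probe sets of each gene were averaged. Those of TRIM25, NFKBIE, REL and IFNAR2 were lost under 5 to 7 of 25 alternatives, and that of MYD88 under 15 of 25. Confluence added to starvation called ZC3HAV1 and PIAS1 higher among the 80, by 0.64 (limma adjusted p = 0.04092) and 1.01 (limma adjusted p = 0.02308). They were 2.5% of the 80, beside 1.46% of all genes called in either direction. The ZC3HAV1 call was lost under 14 of 25 alternatives and the PIAS1 call under 5 of 25. Leaving out 1 array at a time gave counts of 0 to 5.

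The genes whose pattern over the 13 arrays was most like that of a tested member were found by Pearson's r of log2(signal + 16) among 11014 genes. The points share arrays and culture groups, so r is a description. For IRF1 they were NOVA1, an RNA-binding splicing factor (r = 0.98), and GSN, which encodes the actin-severing protein gelsolin (r = 0.98). GSN had 8405, 8890 and 8629 in confluent, starved cells, 8136, 7198 and 7372 in serum-starved cells, 4079, 3180, 2893 and 2921 in contact-inhibited cells and 2827, 3107 and 2513 in cycling cells. After the group means were removed, r with IRF1 was 0.72 for NOVA1 and 0.58 for GSN. For IRF8 they were PI4KA (r = 0.96), a lipid kinase, and FOCAD (r = 0.95), and for IFIH1 the stress kinase gene MAPK8 (r = 0.96) and FAM65C (r = 0.95). For OASL they were RPL22 (r = 0.91), a ribosomal protein gene, and COQ9 (r = 0.90), and for MX1 the muscle factor gene MYOD1 (r = 0.92) and the channel gene KCNK18 (r = 0.92). FAM65C and MAPK8 were both lowest in cycling replicate 3, at 2.83 and 65.5, as IFIH1 was.

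**Figure D4:**
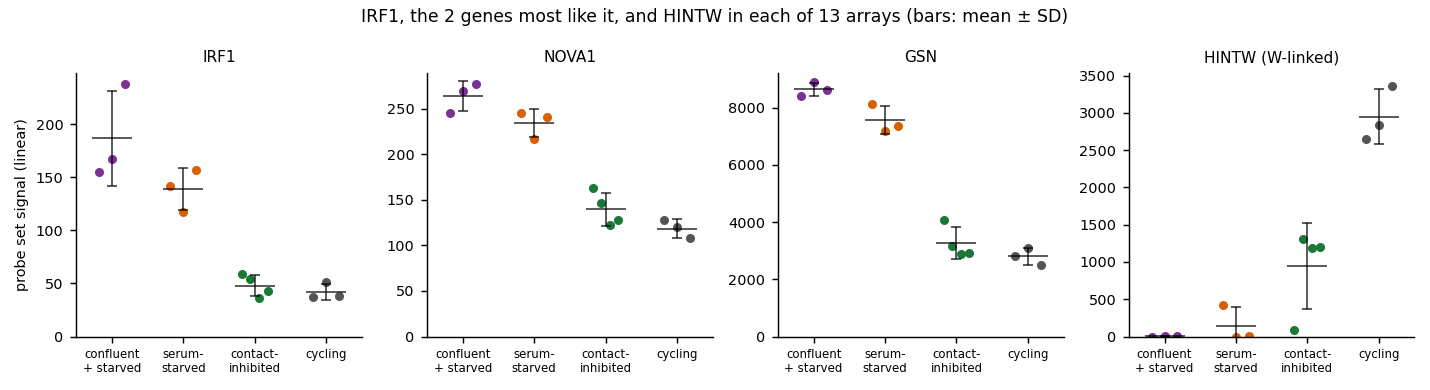
Signal (linear scale) of IRF1, of NOVA1 and GSN, whose patterns were most like it, and of the W-linked gene HINTW, with 1 point per array and the mean and SD of each group. IRF1, NOVA1 (its brightest probe set) and GSN separate the 6 starved arrays from the 7 arrays with serum, and HINTW is highest in cycling cells.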

How the data were processed

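Per the labels, 15 µg of total RNA from each of 13 cultures was labelled with biotin and hybridised to 1 Affymetrix chicken array. The authors deposited a linear intensity per probe set, its signal, computed with Affymetrix Expression Console 1.1 and PLIER per the submitters' processing notes. How PLIER corrected background and scaled the arrays is not given in the sources used here, and no detection calls were used here. Of 38535 probe sets, 842 without a chicken ID were left out. Gene symbols came from the array annotation, which names no genome build, and for 7 of 7 measured genes the identifier carries the same symbol in RefSeq.

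Tests used log2(signal + 16). Probe sets whose mean fell in the lowest 25 percent, below a signal of 22.7, were dropped. limma 3.58.1 in R 4.3.3 (lmFit, eBayes with trend) fitted 4 group means with 9 residual and 4.33 prior degrees of freedom, with two-sided tests and Benjamini-Hochberg adjustment over 28270 probe sets. A self-test on simulated data preceded it. Figures used Python 3.11.15, numpy 2.4.6 and matplotlib 3.10.9. Named pathway genes are up to 4 per list and comparison with the smallest adjusted p, plus ligands and receptors. In a comparison where a pathway gene was not chosen this way, its call was not followed under the alternatives. The number of arrays limits the precision. The interferon response genes, the lists and the tests were chosen with earlier results of these data known. The 25 alternatives covered scaling, offset, filter, trend, array weights, the compared arrays alone, a replicate block, averaged probe sets and arrays left out.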

Additional observations from a re-analysis of the deposited data

Results flagged for a closer look

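Of 50 genes screened, 4 had a contact-inhibited array that stood far from the other 3, with a gap to its nearest neighbour, as a share of the range of the group, above Dixon's 95% critical value. These were MX1 at 108, TNFAIP3 at 273, EIF2AK2 at 149.6 and BF2 at 183. The MX1 value came from replicate 4 and had a gap of 0.848 of the range. Chance alone flags about 1 group in 20.

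In 6 genes the effect of starvation differed between confluent and sparse cells, by limma's interaction term. Of the 80 tested pathway genes, 5% were called with a positive and 2.5% with a negative interaction. This was a smaller share than the 14.2% of all genes called in either direction. The interaction on the log2 scale was -0.96 for JAK1 (limma adjusted p = 0.007812), -1.69 for NFKBIZ (0.005566), 1.51 for SLBP (0.003002), 0.95 for NMI (0.01107), 0.87 for MYD88 (0.03471) and 0.86 for BF2 (0.04228). The JAK1 call was lost when its probe sets were averaged, and those of MYD88 and BF2 were each lost under 13 of 24 alternatives. None of the 5 tested interferon response genes was among these.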

How the results depend on the processing

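Over 25 alternatives, 33 of 298 recomputed counts moved by more than 1.5 times, and of 739 recomputed differences of single interferon response genes 5 gained and 1 lost a call, as given with each gene. Array weights called 2 interferon response genes each for contact-inhibited against cycling, confluent, starved against contact-inhibited and confluent, starved against serum-starved cells. With array weights, the pathway counts were 33 for serum-starved against cycling, 47 for confluent, starved against cycling, 28 for confluent, starved against contact-inhibited and 18 for confluent, starved against serum-starved cells, and 29 for the interaction; the cause was not tested. The pathway count of 2 between confluent, starved and serum-starved cells was 1 with no filter, 1 with averaged probe sets and 5 with the compared arrays alone. Without cycling replicate 3 and contact-inhibited replicate 1 together, the pathway counts were 19 for confluent, starved against contact-inhibited cells, 11 for confluent, starved against serum-starved cells and 14 for the interaction. Leaving out 1 array at a time gave pathway counts of 11 to 24 for serum-starved against cycling, 7 to 17 for confluent, starved against contact-inhibited, 0 to 5 for confluent, starved against serum-starved cells and 4 to 11 for the interaction (main count 6, 11 without contact-inhibited replicate 1). For the interferon response genes it gave 2 to 3 for confluent, starved against cycling cells and 1 to 2 for confluent, starved against contact-inhibited cells. None of these counts has the share of all genes under the same setting beside it, so a larger count is not read as a gain of these genes.

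No pairing of the cultures by the replicate numbers of the labels was visible, which with 3 or 4 arrays a group does not exclude one. Over 18 same-numbered pairs the deviations from group means correlated at -0.29 to 0.38, with 4 above 0.1, and 4 of 12 arrays correlated best with their own number. With a replicate block, the pathway count between confluent, starved and serum-starved cells was 0. The calls of IRF1, IRF8 and IFIH1 were kept under the block, and that of SOCS1 in contact-inhibited cells was lost (limma adjusted p = 0.05167).

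Centring the arrays moved the all-gene median by over 0.1, from 0.02 to -0.10 for contact-inhibited and from 0.01 to -0.11 for serum-starved against cycling cells, and from 0.00 to 0.14 for the interaction. Over all probe sets it gave 3955 higher and 5561 lower calls for contact-inhibited cells, against 5318 and 4513 without it. For the interaction, pathway calls were 4 higher and 2 lower, and 3 higher and 6 lower with quantile normalization. Signals near background limit RSAD2, IFIT5 and MX1, and 3 or 4 arrays a group limit small differences such as those of OASL.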
